A study of Homo sapiens with 6 samples.

Results

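CCF642-34 is an analogue of CCF642, and both compounds were studied as inhibitors of protein disulfide isomerase A1 (PDIA1, encoded by P4HB). The response to CCF642-34 alone was described by comparing the 2 libraries of MM1.S cells treated with 3 µM CCF642-34 for 6 h with the 2 libraries of cells that received the vehicle DMSO. The members were chosen by their labels, 4 of the 6 libraries of the series, and all 11048 gene symbols listed for them were compared. The other 2 libraries, from cells given 3 µM CCF642 for the same time, entered the estimate of the spread and a direct test between the compounds. The cells, MM1.S, are an established line from a patient with multiple myeloma, so every value comes from 1 line at 1 dose and 1 time. Nothing in the sources used here says that the 2 libraries of a group came from separate cultures, and the p-values then measure only the spread between these samples, which may be technical.

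Plasma cells and their malignant counterparts in myeloma secrete large amounts of disulfide-bonded protein, and PDIA1 forms and rearranges those bonds in the endoplasmic reticulum (ER). When folding fails, the sensors PERK, IRE1 and ATF6 start the unfolded protein response, which raises chaperones, transport factors and degradation enzymes of the ER. PERK is also 1 of several kinases that phosphorylate the initiation factor eIF2 in the integrated stress response (ISR), which lowers general translation while the transcription factor ATF4 raises genes of amino acid supply and redox defence. Other programmes that protein damage and electrophilic compounds are known to engage include the heat shock response in the cytosol and the NRF2 antioxidant response.

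The 4 libraries held 22989979 and 21403137 reads with DMSO and 28459677 and 27797578 reads with CCF642-34, recovered from the deposited values, which are CPM, the reads of a gene scaled to the same total in each library. The genes of the table take 99.9% of these reads, and each reaches 1.5 CPM or more in at least 1 of the 6 libraries, so genes silent in all groups were not listed. All 9 plasma cell markers examined (SDC1, TNFRSF17, IRF4, PRDM1, XBP1, CD38, SLAMF7, JCHAIN and MZB1) were listed, at a summed 9384 and 9322 CPM with DMSO and 7416 and 7382 CPM with CCF642-34. The fall of this sum was close to that of JCHAIN alone, the most abundant of them. Of the other markers, SDC1, TNFRSF17, CD38 and MZB1 fell and IRF4 and SLAMF7 rose. XBP1 and PRDM1 did not pass the adjusted threshold given below. None of 4 B cell markers was listed, and the listed markers of 6 other cell types summed to between 1.09 and 13.4 CPM per type in these libraries. Less RNA per cell and fewer cells of a kind cannot be told apart in such bulk samples.

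CCF642-34 changed many genes a little and few genes strongly, and the largest changes were increases. At least 2-fold higher than DMSO at an unadjusted p under 0.05 were 286 genes (2.59% of those listed), and 142 genes (1.29%) were at least 2-fold lower, 3.87% in all. Both CCF642-34 libraries lay above both DMSO libraries for 39.9% of genes and below both for 39.0%. Of these, 95 were at least 3-fold higher and 11 at least 3-fold lower, while 43 were at least 4-fold higher and none reached a 4-fold decrease. At least 16-fold higher were 6 genes, ATF3, HMOX1, TRIB3, SESN2, ADM2 and CHAC1. At a limma adjusted p under 0.05, 3285 genes (29.7%) were higher and 3077 (27.9%) were lower, 57.6% in all, with a median size of 0.40 on the log2 scale, and the share of a gene group that passed has to be read against these percentages. Throughout, rose, fell, higher and lower are used of genes that passed this adjusted threshold, and fold changes are log2 differences of CPM + 1 after TMM scaling, which sets the bulk of genes equal between libraries. With scaling to library size alone, the 2-fold split was 231 higher (53.6%) and 200 lower instead of 286 (66.8%) and 142, and the adjusted split was 2497 higher (38.6%) and 3972 lower instead of 3285 (51.6%) and 3077. The genes at least 2-fold higher had a median of 25.4 CPM with DMSO and 67.1 CPM with CCF642-34, and their summed share went from 22086 to 62410 CPM. The genes at least 2-fold lower had medians of 20.1 and 7.88 CPM and summed to 10009 and 4112 CPM.

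**Figure D1:**
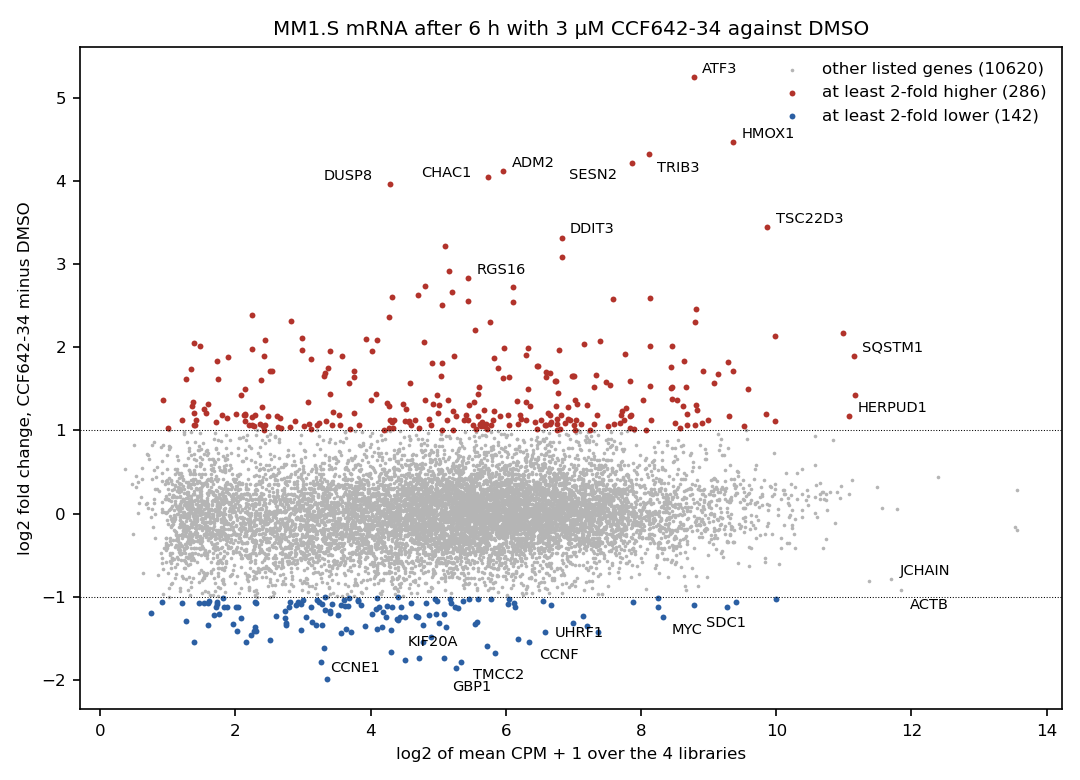
Each point is 1 of the 11048 listed genes, with the log2 of its mean CPM + 1 over the 4 libraries on the x axis and its log2 fold change of CCF642-34 against DMSO on the y axis. Genes at least 2-fold higher (286, red) reach 5.25 for ATF3, whereas none of the 142 genes at least 2-fold lower (blue) reaches a 4-fold decrease.

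The genes were then grouped in 57 lists with 2322 distinct members, and a gene that belongs to several lists counts in each. Over all listed genes the log2 fold change had a median of 0.0067 and quartiles of −0.25 and 0.25. The median of 23 lists lay at least 0.1 above that of all genes and the median of 7 lists at least 0.1 below it. The highest medians were those of ISR transcription factors (1.59), immediate early transcription factors (1.37), amino acid and folate-pathway synthesis (0.88) and cytosolic aminoacyl-tRNA synthetases (0.79). The lowest were those of mitotic kinases and checkpoint proteins (−0.53), the DNA replication machinery (−0.36) and homologous recombination and Fanconi genes (−0.34). Of the genes changed at least 2-fold, 119 of the 286 higher and 28 of the 142 lower genes belonged to a list.

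**Figure D2:**
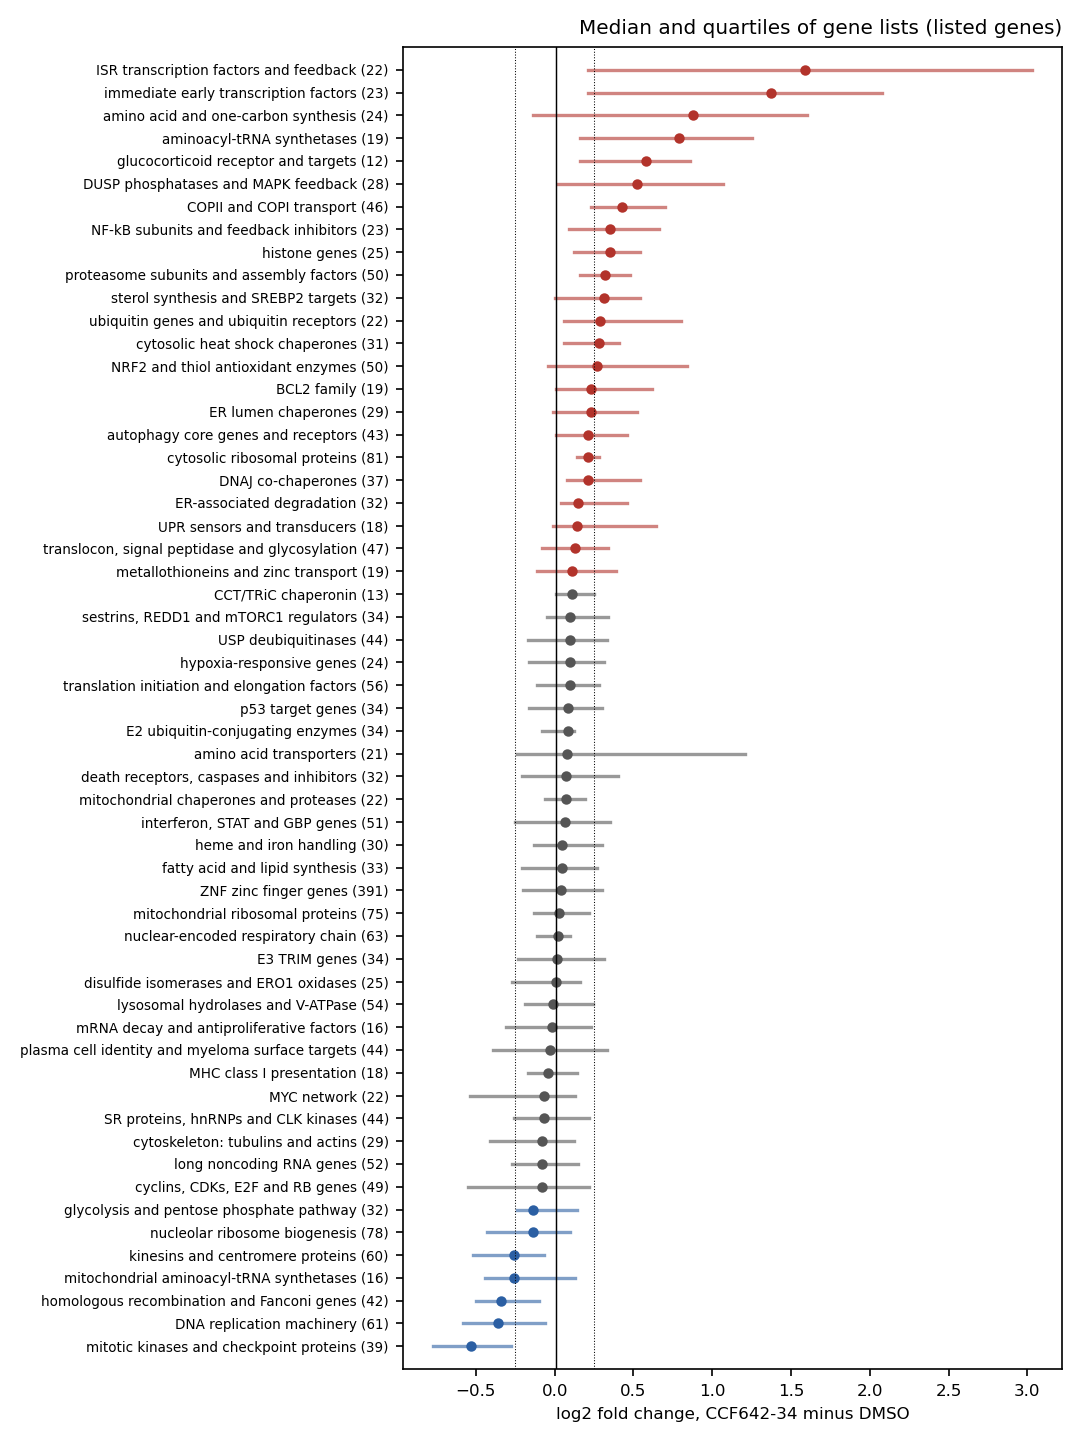
Points give the median and bars the quartiles of the log2 fold change of CCF642-34 against DMSO over the listed genes of each of 57 lists, with the number of genes in brackets, and vertical lines mark the median (solid) and quartiles (dotted) of all genes. ISR factors sit highest at 1.59 and mitotic kinases lowest at −0.53, and red and blue mark the 23 lists at least 0.1 above and the 7 lists at least 0.1 below the median of all genes.

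Promoters of genes from several lists are shown first, chosen because response elements of the ISR, ER stress, heat shock or the cell cycle can be seen in them. Each window runs from 250 bases before to 50 bases after the RefSeq start of the gene on GRCh38.p14, 5′ to 3′ on the strand of the gene, and capitals mark matches of the named motifs on either strand. In HERPUD1 (chr16:56931892-56932191, + strand) they mark the composite C/EBP-ATF element TGATGNAA, to which ATF4 and C/EBP partners are known to bind, and the ER stress element ERSE-II, in which ATTGG and CCACG stand 1 base apart. In HSPA5 (chr9:125241294-125241593, − strand) they mark the ER stress element ERSE, in which CCACG follows the NF-Y box CCAAT after 9 bases, and in STX5 (chr11:62832002-62832301, − strand) the unfolded protein response element UPRE (TGACGTGG), a binding sequence of XBP1 and ATF6. In HSPA8 (chr11:123062087-123062386, − strand) they mark 2 heat shock elements, in which GAA, TTC and GAA stand 2 bases apart, and in PLK1 (chr16:23678639-23678938, + strand) the cell cycle element CHR (TTTGAA) and the NF-Y box (CCAAT).
HERPUD1: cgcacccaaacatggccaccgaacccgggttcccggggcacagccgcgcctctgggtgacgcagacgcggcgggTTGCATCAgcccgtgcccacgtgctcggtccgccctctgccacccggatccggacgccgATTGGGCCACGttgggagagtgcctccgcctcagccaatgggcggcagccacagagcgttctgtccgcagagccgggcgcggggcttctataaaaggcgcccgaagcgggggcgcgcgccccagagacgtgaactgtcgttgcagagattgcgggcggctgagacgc
HSPA5: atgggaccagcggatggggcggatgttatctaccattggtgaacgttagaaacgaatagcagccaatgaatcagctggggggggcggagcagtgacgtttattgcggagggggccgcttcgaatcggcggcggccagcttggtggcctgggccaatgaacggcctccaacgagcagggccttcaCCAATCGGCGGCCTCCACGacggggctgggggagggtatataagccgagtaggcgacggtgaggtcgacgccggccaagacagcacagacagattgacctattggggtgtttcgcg
STX5: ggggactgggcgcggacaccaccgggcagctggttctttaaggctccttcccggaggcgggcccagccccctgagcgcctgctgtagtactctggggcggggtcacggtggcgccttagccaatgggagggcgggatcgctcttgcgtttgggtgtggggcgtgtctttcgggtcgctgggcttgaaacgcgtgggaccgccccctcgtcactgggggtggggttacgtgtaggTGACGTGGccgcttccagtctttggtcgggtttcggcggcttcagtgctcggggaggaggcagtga
HSPA8: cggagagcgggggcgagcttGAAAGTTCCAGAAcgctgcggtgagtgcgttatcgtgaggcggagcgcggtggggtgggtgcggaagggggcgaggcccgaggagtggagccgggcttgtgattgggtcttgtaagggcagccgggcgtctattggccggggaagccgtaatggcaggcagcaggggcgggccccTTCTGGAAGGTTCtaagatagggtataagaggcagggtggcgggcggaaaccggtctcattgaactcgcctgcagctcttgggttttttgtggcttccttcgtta
PLK1: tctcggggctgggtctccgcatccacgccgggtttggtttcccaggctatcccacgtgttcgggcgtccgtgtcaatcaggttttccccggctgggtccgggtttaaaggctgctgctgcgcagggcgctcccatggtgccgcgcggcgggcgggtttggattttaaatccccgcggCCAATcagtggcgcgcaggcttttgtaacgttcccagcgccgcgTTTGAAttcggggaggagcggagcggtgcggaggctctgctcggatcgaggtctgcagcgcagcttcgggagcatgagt

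Among the 9105 listed genes with such a window, 30.1% were higher and 28.1% lower with CCF642-34. The C/EBP-ATF element was present in 1.65% of all windows, and of the 150 genes that hold it 44.0% were higher, 18.7% were lower and 10.0% were at least 2-fold higher, against 2.54% of all genes with a window. It was found in 5 of 12 windows of aminoacyl-tRNA synthetases (41.7%), 4 of 16 of amino acid synthesis and 3 of 19 of ISR factors (15.8%). ERSE occurred in 0.165% of windows, and of its 15 genes 66.7% were higher and none was lower, while of the 11 genes with ERSE-II (0.121%) 54.5% were higher and 9.09% lower. UPRE (0.977% of windows, 89 genes) and the cyclic AMP response element TGACGTCA (3.43%, 312 genes) had 44.9% and 42.0% of their genes higher and 19.1% and 21.2% lower. UPRE was found in 9 of 40 windows of COPII and COPI transport genes (22.5%). Heat shock elements were in 5 of 27 windows of cytosolic heat shock chaperones (18.5%) against 0.275% of all windows. Of all 25 genes with a heat shock element 44.0% were higher and 24.0% lower. CHR was in 18 of 28 windows of mitotic genes (64.3%) against 9.81% of all, and of all 893 genes with CHR 28.1% were higher and 33.4% lower. The antioxidant response element TGACNNNGC (15.4% of windows), the E-box CACGTG (10.5%), the AP-1 site TGANTCA (4.26%), the E2F site TTTGGCGC (1.22%) and the NF-Y box (37.4%) had between 26.1% and 33.8% of their genes higher. A match is a string of letters in a window and not a bound site, and windows overlap in the motifs they hold.

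**Figure D3:**
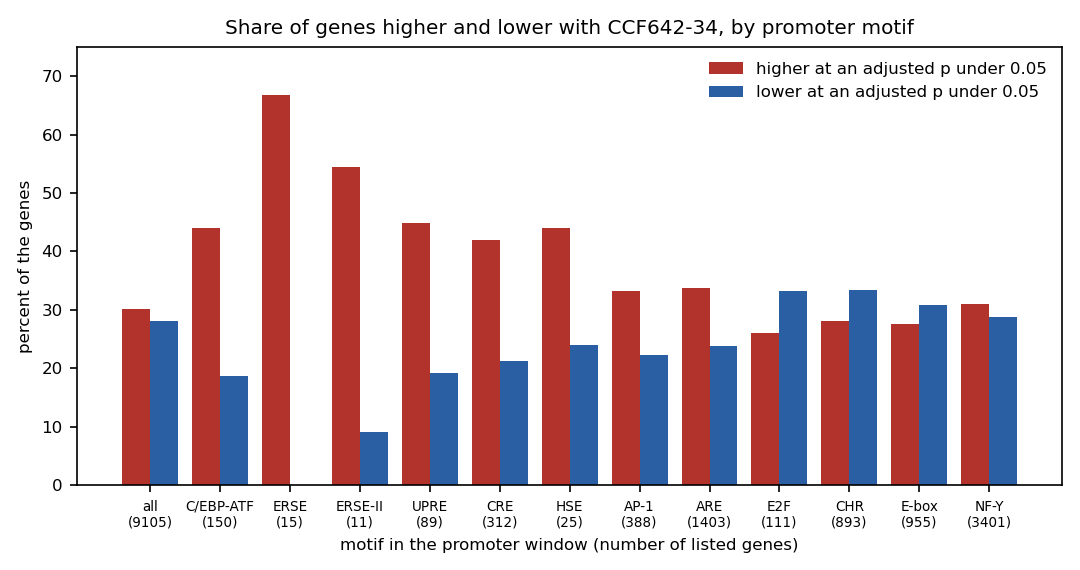
Bars give the percentage of listed genes higher (red) and lower (blue) at a limma adjusted p under 0.05 with CCF642-34 against DMSO, for all 9105 genes with a promoter window and for those whose window holds each motif, with the number of genes in brackets. The bars furthest above the 30.1% of all genes are those of ERSE (66.7% higher, 15 genes), ERSE-II (54.5%, 11 genes) and UPRE (44.9%, 89 genes). Next are the C/EBP-ATF element (44.0%, 150 genes), the heat shock element HSE (44.0%, 25 genes) and the cyclic AMP response element CRE (42.0%, 312 genes).

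The transcription factors and feedback genes of the ISR showed the largest shift, with 16 of 22 listed genes higher, 3 lower and 13 at least 2-fold higher. CEBPA, CEBPD, NUPR1 and STC2 of this list were not listed. ATF4, the central factor, was at 411 and 428 CPM with DMSO and 1125 and 1103 CPM with CCF642-34 (log2 fold change 1.5, SE 0.037, limma adjusted p = 3.93e-35). Its stress partner DDIT3, which encodes CHOP, was at 20.6 and 20.8 CPM against 203 and 205 CPM (3.32). The gap between groups was many times the gap within either group for both factors. SESN2, which encodes a leucine sensor that restrains mTORC1, was at 23.5 and 24.7 CPM with DMSO and 442 and 435 CPM with CCF642-34 (4.22, SE 0.046, limma adjusted p = 5.04e-50). CHAC1, a glutathione-degrading enzyme, was at 4.18 and 6.77 CPM against 100 and 97.7 CPM (4.05, SE 0.094, limma adjusted p = 4.89e-36). The C/EBP partners rose as well, CEBPB by 3.22 and CEBPG by 1.69. So did the brakes on the pathway, the pseudokinase gene TRIB3 by 4.33 and PPP1R15A, the stress-induced phosphatase subunit that reverses eIF2 phosphorylation, by 2.46. DDIT4, an mTORC1 inhibitor, and EIF4EBP1, a repressor of cap-dependent translation, rose by 1.92 and 1.34. Lower were TRIB2 (−0.81), EIF2AK2, which encodes the eIF2 kinase PKR (−0.26, not passing at −0.206 without DMSO replicate 1), and ATF5 (−0.25). The decrease of ATF5 did not pass with DESeq2 on the recovered reads, and it was lost when any of the 4 libraries was left out.

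Genes of amino acid supply followed. Of 24 listed genes of amino acid and folate-pathway synthesis, 15 were higher and 7 lower, and 11 were at least 2-fold higher. The serine branch rose in all 3 of its enzymes, PHGDH (1.59), PSAT1 (2.59) and PSPH (1.99). PSAT1 was at 82.6 and 83.9 CPM with DMSO and 464 and 487 CPM with CCF642-34 (SE 0.043, limma adjusted p = 3.27e-42). The mitochondrial folate enzymes rose too, MTHFD2 from 286 and 284 CPM to 796 and 801 CPM (1.57), ALDH1L2 by 1.64 and SHMT2 by 1.31. CTH, which makes cysteine from cystathionine, went from 6.7 and 6.59 CPM to 49 and 45.6 CPM (2.74), and ASNS, asparagine synthetase, from 91.6 and 93.2 CPM to 260 and 265 CPM (1.58). In proline synthesis the steps diverged, since PYCR1 rose by 0.90 while ALDH18A1, an earlier enzyme of the same route, fell by 0.77 (103 and 109 CPM against 58 and 58.2 CPM). The transaminase genes OAT (−0.49) and BCAT2 (−0.50) were lower.

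The amino acid transporters split. Of 21 listed genes, 10 were higher and 7 lower, 7 were at least 2-fold higher, and the median of 0.078 was within 0.1 of that of all genes. SLC7A11, the cystine importer, was at 27.5 and 22 CPM with DMSO and 201 and 203 CPM with CCF642-34 (3.08, SE 0.062, limma adjusted p = 7.53e-39). Its heavy chain SLC3A2, shared with the leucine transporter SLC7A5, went from 386 and 397 CPM to 1656 and 1597 CPM (2.14), and SLC7A5 rose by 1.72. The glycine transporter SLC6A9 (2.73), the neutral amino acid transporter SLC38A2 (1.82) and the arginine transporter SLC7A1 (1.18) rose, whereas the lysosomal and mitochondrial carriers SLC36A1 (−0.63) and SLC25A22 (−0.62) fell. Among the 19 cytosolic aminoacyl-tRNA synthetases, which load amino acids onto tRNA, 15 were higher and 7 at least 2-fold, led by GARS (1.68, from 280 and 280 CPM to 832 and 859 CPM), CARS (1.55), TARS (1.38), SARS (1.37) and MARS (1.29). RARS (−0.32) and FARSB (−0.12) were lower, and the call of FARSB was lost when any of the 4 libraries was left out. The mitochondrial counterparts went the other way, with 3 of 16 higher and 9 lower and a median of −0.26. MARS2 was at 48.2 and 48.7 CPM with DMSO and 21.8 and 21.8 CPM with CCF642-34 (−1.03, SE 0.087, limma adjusted p = 2.78e-14), and CARS2 (−0.56) was lower too.

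**Figure D4:**
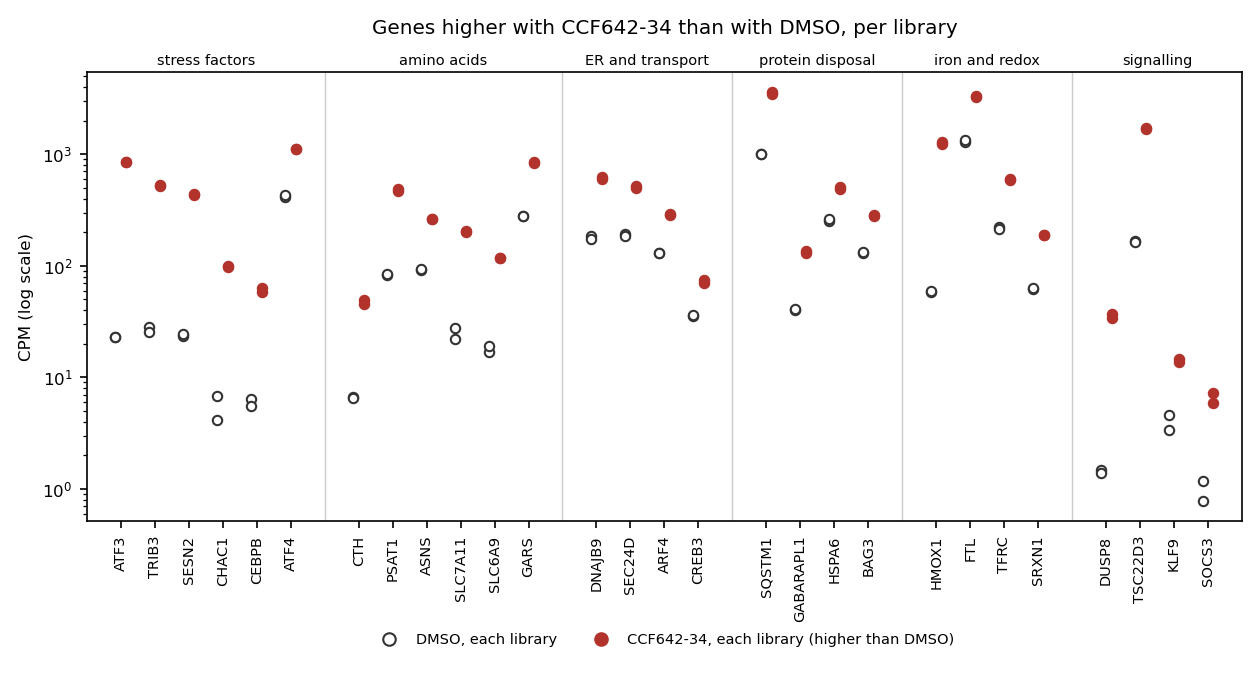
Deposited CPM of each library on a log scale for genes that were higher with CCF642-34 (red, 2 libraries) than with DMSO (open circles, 2 libraries), in groups named above the plot. The groups do not overlap for any gene shown, which after TMM scaling also held, in this direction, for 39.9% of all listed genes. The gap is widest for ATF3, at 22.8 and 22.9 CPM against 854 and 859 CPM.

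P4HB, the gene of the intended target, was at 1640 and 1690 CPM with DMSO and 1756 and 1742 CPM with CCF642-34 (0.16, SE 0.035, limma adjusted p = 9.36e-05), and with library size alone this difference was 0.071 and did not pass. Of 25 listed disulfide isomerases and ERO1 oxidases, 7 were higher, 10 were lower and none changed at least 2-fold, with a median of 0.011. The largest increase was that of ERO1B, an oxidase that recharges the isomerases (0.81), while the other oxidase gene ERO1A fell by 0.22, a call that was lost without DMSO replicate 2 (−0.151) or CCF642-34 replicate 1 (−0.169). PDIA3 (0.27) and PDIA4 (0.22) were higher, and QSOX2 (−0.65) and TXNDC11 (−0.42) were lower. PDIA2 and AGR2 were not listed.

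In the ER itself, some chaperone genes rose and others did not pass. Of 29 listed genes, 19 were higher and 2 lower, and DNAJB9 alone was at least 2-fold higher. DNAJB9, a J-domain partner of BiP and a target of XBP1, was at 186 and 175 CPM with DMSO and 595 and 626 CPM with CCF642-34 (1.84, SE 0.041, limma adjusted p = 9.37e-37). HSPA5, which encodes BiP and whose promoter window holds the ERSE, was at 1329 ± 2.5 CPM (SD, n = 2) against 2320 ± 17.5 CPM (0.89). HSP90B1, the other major ER chaperone gene, was at 3078 and 3036 CPM against 2909 and 3115 CPM, and its difference of 0.068 did not pass (limma adjusted p = 0.0945), though it passed as higher without CCF642-34 replicate 1 (0.114), with limma-voom (0.067), with only the 2 groups compared (0.068) and without either CCF642 library (0.068). The collagen chaperone gene SERPINH1 (0.93), the prolyl isomerase FKBP14 (0.91) and the secreted survival factor MANF (0.71) rose, and MZB1, a plasma cell co-chaperone of immunoglobulin assembly, fell by 0.19. Of 18 sensors and transducers 9 were higher and 4 lower. EIF2AK3, which encodes PERK, was at 148 and 149 CPM against 402 and 417 CPM (1.54), ERN1, which encodes IRE1, at 319 and 319 CPM against 643 and 637 CPM (1.09), and the membrane-bound factor CREB3 at 35.7 and 36.3 CPM against 74.5 and 69.8 CPM (1.07). CREB3L2 rose by 0.80, and ATF6 (−0.18), its protease gene MBTPS2 (−0.34) and the IRE1 adaptor gene TRAF2 (−0.49) were lower. XBP1 was at 1368 and 1358 CPM with DMSO and 1316 and 1311 CPM with CCF642-34, a difference of 0.037 that did not pass, and a gene-level count does not distinguish its spliced mRNA from its unspliced one.

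ER-associated degradation and vesicle transport rose, the latter more evenly. HERPUD1, a scaffold of the retrotranslocation complex, went from 1395 and 1393 CPM to 2921 and 2962 CPM (1.17, SE 0.033, limma adjusted p = 2.4e-32), and DERL2 (0.89), ERLEC1 (0.65), EDEM1 (0.53), SYVN1 (0.46) and SEL1L (0.45) rose by less. In this list 17 of 32 genes were higher and 3 lower, the ubiquitin-conjugating enzyme gene UBE2G2 (−0.57) most. Of 46 listed COPII and COPI genes, which move cargo between the ER and the Golgi, 37 were higher and none lower with a median of 0.43, and with library size alone 34 were higher and 4 lower. SEC24D, a cargo adaptor of the COPII coat, was at 193 and 185 CPM with DMSO and 499 and 515 CPM with CCF642-34 (1.51, SE 0.041, limma adjusted p = 3.14e-33), and the small GTPase gene ARF4 at 131 and 130 CPM against 283 and 294 CPM (1.23). STX5, a Golgi SNARE whose window holds the UPRE, rose by 0.97 and SEC23B by 0.82. Genes of the translocon, signal peptidase and glycosylation were less uniform, with 23 of 47 higher and 8 lower, SRP19 (0.74) and SEC61A1 (0.49) among the former and SPCS3 (−0.33) among the latter.

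Cytosolic chaperones of the heat shock response changed modestly. Of 31 listed genes 22 were higher, 4 lower and 3 at least 2-fold higher, BAG3 (131 and 133 CPM against 283 and 282 CPM, 1.18), the small heat shock protein gene HSPB1 (63.1 and 64.7 CPM against 129 and 124 CPM, 1.06) and HSPA6 (254 and 265 CPM against 508 and 488 CPM, 1.03). HSPA8, the constitutive HSP70 with 2 heat shock elements in its window, rose by 0.40, HSP90AB1 by 0.32 and HSP90AA1 by 0.26. HSPA1B was at 141 and 140 CPM against 134 and 126 CPM, a difference of −0.022 that did not pass (limma adjusted p = 0.714) but passed as lower with library size alone. Since HSPA1A, HSPA1B and HSPA6 share near-identical stretches, how reads were divided among them is uncertain. In mitochondria, the HSP70 gene HSPA9 (522 and 520 CPM against 964 and 995 CPM) and the protease gene LONP1 (0.81) rose. Of 22 mitochondrial chaperones and proteases 7 (31.8%) were higher, near the 29.7% of all genes, and 3 (13.6%) were lower, against 27.9%. The CCT chaperonin, which folds actin and tubulin, had 7 of 13 genes higher and 2 lower, with changes from −0.17 for CCT6A to 0.69 for the prefoldin gene PFDN4, and of 37 DNAJ co-chaperones 22 were higher and 3 lower.

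Genes of protein disposal rose together with these. Of 50 listed proteasome subunits and assembly factors 41 were higher and 3 lower, with a median of 0.32, and with library size alone 34 were higher and 6 lower. The changes were small and even, PSMD12 (0.78), PSMC6 (0.69), PSMC4 (0.66), PSMD11 (0.46) and PSMB5 (0.38), whereas NFE2L1, the factor that drives proteasome genes, went from 404 and 402 CPM to 859 and 851 CPM (1.17, SE 0.038, limma adjusted p = 2.39e-30). UBB, a polyubiquitin gene, rose by 0.82 (430 and 430 CPM against 720 and 707 CPM), and its reads may be shared with other genes that carry ubiquitin units. Of 22 ubiquitin and receptor genes 15 were higher and 2 lower. Of the 34 E2 conjugating enzymes 7 were higher (20.6%) and 6 lower (17.6%), against 29.7% and 27.9% of all genes. Of the 44 USP deubiquitinases 16 were higher (36.4%) and 13 lower (29.5%). The autophagy receptor gene SQSTM1 went from 997 and 1011 CPM to 3580 and 3465 CPM (1.90, SE 0.034, limma adjusted p = 4.6e-41). GABARAPL1 (1.78) and MAP1LC3B (1.10), which encode autophagosome proteins, and TFEB (1.11), a regulator of lysosomal genes, were also at least 2-fold higher, and in all 25 of 43 autophagy genes were higher and 6 lower. Lysosomal hydrolases and V-ATPase subunits did not move with them, with 20 of 54 higher and 16 lower and a median of −0.013.

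Redox and iron genes held the second largest change of all. HMOX1, the heme-degrading enzyme, was at 58.7 and 59.7 CPM with DMSO and 1278 and 1234 CPM with CCF642-34 (4.47, SE 0.041, limma adjusted p = 2.99e-53). The ferritin chains rose, FTL from 1278 and 1328 CPM to 3331 and 3273 CPM (1.43) and FTH1 from 133 and 133 CPM to 305 and 299 CPM (1.27), and both have pseudogenes that could share their reads. So did the transferrin receptor gene TFRC, from 223 and 215 CPM to 584 and 603 CPM (1.52). The iron exporter gene SLC40A1 fell from 6.57 and 8.74 CPM to 2.14 and 2.81 CPM (−1.23). In all, 12 of 30 heme and iron genes were higher (40%) and 7 lower (23.3%), against 29.7% and 27.9% of all genes. Of 50 NRF2 and thiol antioxidant genes 28 were higher, 8 lower and 8 at least 2-fold higher, with a median of 0.27. Beyond SLC7A11 these were MAFF (2.21), OSGIN1 (1.90), SRXN1 (1.66), GCLM (1.44), NFE2L2 itself (1.09), the repressor gene BACH1 (1.09) and the malic enzyme gene ME1 (1.23). SRXN1, which restores oxidised peroxiredoxin, was at 61.7 and 63.7 CPM against 187 and 188 CPM. The classic target NQO1 rose by 0.90 and TXNRD1 by 0.51, while TXN (0.038) did not pass and SOD2 fell by 0.63. Of the metallothionein genes, MT1X and MT2A were listed. MT1X was higher, a call that was lost without CCF642-34 replicate 1 (0.536). MT2A did not pass (limma adjusted p = 0.178). With the zinc transporters, 8 of 19 genes of that list were higher and 4 lower. The zinc importer gene SLC39A10 fell from 26.9 and 23.4 CPM to 8.85 and 12.2 CPM (−1.11).

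Signalling genes that respond within hours were among the most changed, with 17 of 23 listed immediate early transcription factors higher, 3 lower and 12 at least 2-fold higher. ATF3, which is also a target of ATF4, rose most of all genes (5.25). The orphan nuclear receptors NR4A1 (56.5 and 57.8 CPM against 334 and 319 CPM, 2.58), NR4A2 (2.51) and NR4A3 (2.92) rose together, as did JUN (144 and 148 CPM against 568 and 539 CPM, 2.01) and JUND (2.01). SRF, whose protein drives many immediate early genes, fell from 97.6 and 92.2 CPM to 44 and 40.2 CPM (−1.07), and KLF10 (−0.69) and KLF13 (−0.40) were lower too. Of 28 MAP kinase phosphatases and feedback regulators 19 were higher and 4 lower. DUSP8, a phosphatase of stress-activated kinases, went from 1.48 and 1.4 CPM to 37.2 and 34 CPM (3.96, SE 0.11, limma adjusted p = 7.66e-33), and DUSP10, of the same kind, rose by 1.90. DUSP7 and DUSP6, which act on ERK, fell by 1.24 and 0.46. Of 16 mRNA decay and antiproliferative factors 6 were higher and 6 lower, with the decay factors ZFP36L1 (1.13) and ZFP36 (1.08) higher and TOB1 (−0.50) lower.

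TSC22D3, which encodes the glucocorticoid-induced leucine zipper protein, was at 167 and 162 CPM with DMSO and 1684 and 1723 CPM with CCF642-34 (3.45, SE 0.036, limma adjusted p = 7.31e-51). In the list of 12 glucocorticoid receptor and target genes 9 were higher and 1 lower, KLF9 rising by 1.69 and PER1 by 0.99, but FKBP5, a standard target of the receptor, fell by 0.54 (91.3 and 87 CPM against 58.9 and 56 CPM). Of 23 NF-kB subunits and feedback genes 16 were higher and 2 lower, with the chemokine genes CCL4 (1.30) and CCL3 (1.20), known targets of the pathway, the 2 that were at least 2-fold higher. CCL3 was at 586 and 585 CPM against 1267 and 1258 CPM. The inhibitor gene NFKBIA rose by 0.82 while TNFAIP3, which encodes the inhibitor A20, fell by 0.62. Of 51 interferon, STAT and GBP genes 19 were higher and 14 lower at a median of 0.065, near the shares of all genes. SOCS3, a feedback inhibitor of cytokine receptors, rose from 0.783 and 1.17 CPM to 7.24 and 5.86 CPM (1.98), and the guanylate-binding protein gene GBP1 fell from 57.6 and 62.4 CPM to 14.8 and 14.9 CPM (−1.86, SE 0.093, limma adjusted p = 1.45e-22). GBP4 (−0.99) and GBP2 (−0.72) were lower with it, and CIITA, the master regulator of MHC class II, fell from 21.4 and 23.9 CPM to 9.17 and 8.89 CPM (−1.15). Of 18 MHC genes in its list 5 were higher and 5 lower, and the class I light chain B2M did not pass (limma adjusted p = 0.342).

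Genes of growth split between MYC and the nucleolus, which were lower, and the ribosomal proteins, which were higher. MYC was at 452 and 465 CPM with DMSO and 181 and 181 CPM with CCF642-34 (−1.25, SE 0.045, limma adjusted p = 2.75e-28), and its antagonists MXD1 (0.82) and MXI1 (0.56) were higher, in a list of 22 genes with 6 higher and 9 lower. Of 78 nucleolar ribosome biogenesis genes 40 were lower and 15 higher with a median of −0.14, including RRS1 (40.6 and 44.3 CPM against 20.2 and 17.3 CPM, −1.05), UBTF, a factor of ribosomal RNA transcription (−0.90), RRP1B (−0.77) and NOP56 (−0.64). RRP12 (0.61) and POLR1E (0.55) were higher. Of 81 cytosolic ribosomal protein genes 67 were higher and 3 lower at a median of 0.21, and with library size alone 51 were higher and 6 lower. These differences were small, RPL3 rising by 0.33 and RPLP0 by 0.23, and many of these genes have processed pseudogenes that could share reads. RPL36A, at 8.44 and 10.2 CPM against 3.09 and 4.03 CPM (−1.10), was the exception in size. Of 75 mitochondrial ribosomal protein genes 20 were higher, 15 lower and 40 did not pass, shares no greater than those of all genes. Of 56 translation factors 27 were higher and 12 lower, with the start-site selection factors EIF1 (1.05) and EIF5 (0.98) and the eIF2 subunit EIF2S2 (0.83) higher and the elongation factor kinase EEF2K (−0.75) and EIF3B (−0.48) lower.

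Lipid and sugar metabolism diverged. Of 32 genes of sterol synthesis and SREBP2 targets 19 were higher and 4 lower at a median of 0.31. HMGCS1, an early enzyme of the pathway, was at 62.2 and 65.6 CPM with DMSO and 145 and 152 CPM with CCF642-34 (1.29, SE 0.054, limma adjusted p = 1.29e-25). MSMO1, a later enzyme (0.95), and INSIG1, a feedback regulator (0.78), rose by less than 2-fold, and the cholesterol exporter gene ABCA1 (−0.88) and the E3 ligase gene MYLIP (−0.76) fell. Of 33 fatty acid and lipid synthesis genes 12 were higher and 9 lower, near the shares of all genes. Malic enzyme ME1, a supplier of NADPH, rose from 35.2 and 33.3 CPM to 77.7 and 76 CPM (1.23). Of 32 glycolysis and pentose phosphate genes 17 were lower and 5 higher at a median of −0.14. LDHA, lactate dehydrogenase, fell from 1121 and 1108 CPM to 697 and 706 CPM (−0.58) and hexokinase HK2 by 0.43, while the glucose transporter gene SLC2A3 rose from 46.9 and 46.7 CPM to 142 and 148 CPM (1.70). Nuclear genes of the respiratory chain showed 11 of 63 higher (17.5%) and 12 lower (19%), below the 29.7% and 27.9% of all genes. Hypoxia-responsive genes showed 10 of 24 higher (41.7%) and 6 lower (25%), and ADM, a hypoxia-induced peptide gene, fell by 0.58.

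Genes of cell division were mostly lower. Of 39 mitotic kinases and checkpoint genes 34 were lower and 2 higher, with 3 at least 2-fold lower. FAM83D, a spindle protein, was at 43 and 37.4 CPM with DMSO and 10.2 and 11 CPM with CCF642-34 (−1.74, SE 0.11, limma adjusted p = 5.74e-19). PLK1, a mitotic kinase whose window holds CHR, was at 198 and 202 CPM against 79.1 and 79.8 CPM (−1.23), and ASPM, of the spindle pole, at 420 and 427 CPM against 177 and 188 CPM (−1.12). WEE1 (−0.96), AURKA (−0.90) and BIRC5 (−0.82) were lower by less than 2-fold. Of 60 kinesins and centromere genes 39 were lower and 4 higher, with the mitotic kinesin KIF20A (80.6 and 78.5 CPM against 22.4 and 26.1 CPM, −1.59) and the centromere protein gene CENPF (−1.02) lower and KIF21B, a kinesin with roles outside mitosis, higher (319 and 319 CPM against 1013 and 972 CPM, 1.72).

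Of 49 cyclin, CDK, E2F and RB genes 16 were higher and 22 lower at a median of −0.082, and 32.7% higher is near the 29.7% over all genes. CCNE1, which starts DNA synthesis with CDK2, was at 33.9 and 35.4 CPM with DMSO and 9.31 and 8.53 CPM with CCF642-34 (−1.76, SE 0.12, limma adjusted p = 7.37e-18). CCNF (124 and 120 CPM against 37.6 and 39.4 CPM, −1.55), the repressor E2F8 (−1.33) and CCNE2 (−1.09) were the others at least 2-fold lower, while CCNB1 (−0.85), CCNA2 (−0.81), CDK1 (−0.65) and E2F1 (−0.59) were lower by less and CCND2, the D-type cyclin, at 554 and 557 CPM against 515 and 529 CPM, did not pass (limma adjusted p = 0.999; it passed as lower with library size alone). The inhibitor CDKN1A, which encodes p21, rose from 20.8 and 19.6 CPM to 118 and 113 CPM (2.54). Of 61 DNA replication genes 41 were lower and 8 higher. UHRF1, which keeps DNA methylation at replication forks, fell from 136 and 145 CPM to 49.5 and 46.9 CPM (−1.43, SE 0.062, limma adjusted p = 5.64e-25), TOP2A by 1.10 and PCNA from 128 and 128 CPM to 57.4 and 57.4 CPM (−1.05). The origin licensing genes CDC6 and ORC1 were higher, each by 0.38. Of 42 homologous recombination and Fanconi genes 28 were lower and 1 higher, SLX4 (−0.83) and FANCA (−0.71) most. Of 25 histone genes 8 were higher and 3 lower, and since mRNA was selected by oligo(dT), histone mRNAs without a poly(A) tail are represented only in part.

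**Figure D5:**
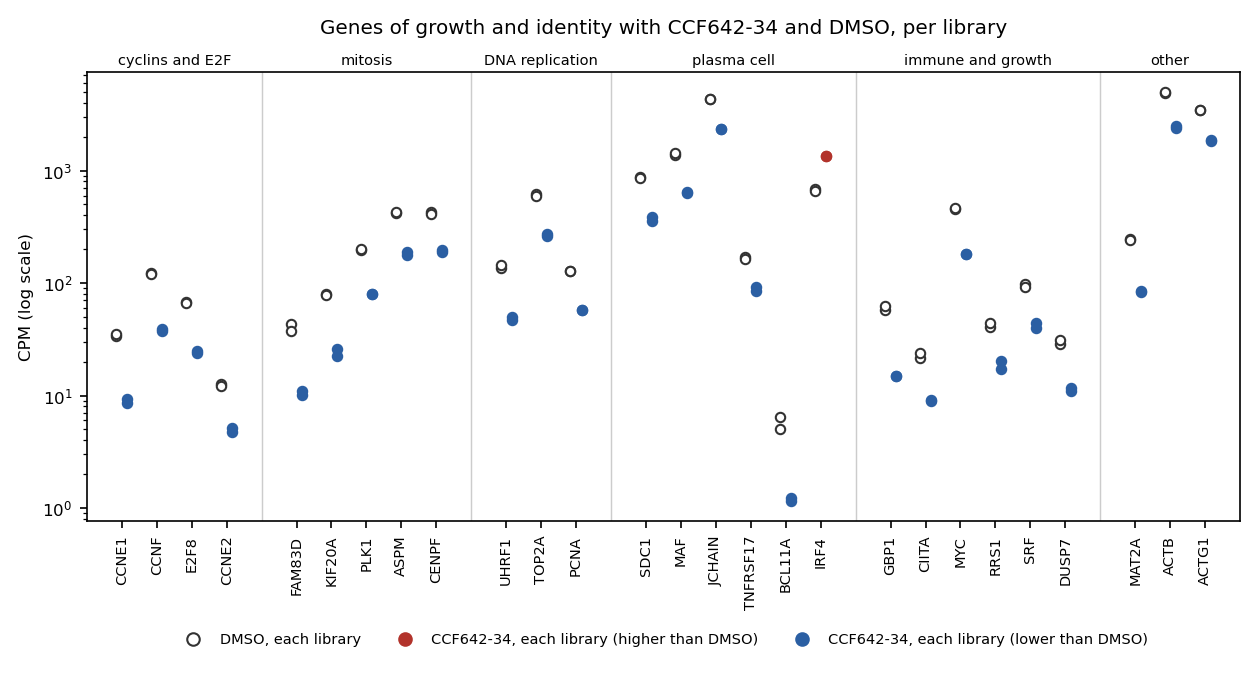
Deposited CPM of each library on a log scale for genes of growth, division and plasma cell identity with DMSO (open circles, 2 libraries) and CCF642-34 (2 libraries, blue where lower and red where higher than DMSO). The groups do not overlap for any gene shown, which after TMM scaling also held for 39.0% of all listed genes as lower and 39.9% as higher. IRF4, at 682 and 657 CPM against 1358 and 1355 CPM, is the 1 gene of this plot that was higher.

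Among genes of cell death, BBC3, which encodes the BCL2 antagonist PUMA, was at 11.7 and 12.6 CPM with DMSO and 75.7 and 69.1 CPM with CCF642-34 (2.56, SE 0.075, limma adjusted p = 6.41e-32), and PMAIP1, which encodes NOXA, at 5.92 and 5.93 CPM against 22.9 and 26 CPM (1.95). BCL2L11, which encodes BIM, rose by 0.23, BCL2 and BCL2L1 fell by 0.34 and 0.25, and MCL1, the survival factor on which many myeloma cells depend, was at 754 and 732 CPM against 728 and 734 CPM and did not pass (0.068, limma adjusted p = 0.106), though it passed as higher with only the 2 groups compared and without either CCF642 library (0.068 each). In all, 11 of 19 BCL2 family genes were higher and 2 lower. The death receptor gene TNFRSF10B, a known target of CHOP, rose from 23.4 and 25.8 CPM to 89.4 and 85.1 CPM (1.87) and its adaptor gene FADD by 1.10, while its ligand TNFSF10 (−0.69), the apoptosome gene APAF1 (−0.77) and the inhibitor CFLAR (−0.37) fell. In that list of 32 death receptor and caspase genes 12 were higher (37.5%) and 7 lower (21.9%). Of 34 sestrins and mTORC1 regulators 16 were higher (47.1%) and 5 lower (14.7%), with SESN3 (−0.42) opposite to SESN2. Of 34 p53 target genes 12 (35.3%) were higher and 7 (20.6%) lower, against 29.7% and 27.9% of all genes. Those at least 2-fold higher were SESN2, BBC3, CDKN1A, TNFRSF10B and GDF15. GDF15 was at 0 and 0.0467 CPM with DMSO and 3.44 and 2.95 CPM with CCF642-34, so that no fold is given. Of the other targets, MDM2 rose by 0.30, SESN1 (0.00025) and RRM2B (−0.076) did not pass, and TP53INP1 (−0.75) and POLH (−0.91) fell.

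Genes of plasma cell identity changed in both directions, with a list median of −0.029. Of 44 listed genes 15 (34.1%) were higher and 19 (43.2%) lower, against 29.7% and 27.9% of all genes. SDC1, which encodes the plasma cell surface protein CD138, was at 870 and 851 CPM with DMSO and 383 and 359 CPM with CCF642-34 (−1.12, SE 0.041, limma adjusted p = 6.01e-28). MAF, a driver oncogene of some myelomas, was at 1379 and 1421 CPM against 647 and 637 CPM (−1.03), and JCHAIN, the joining chain of polymeric immunoglobulin, at 4321 and 4316 CPM against 2339 and 2357 CPM (−0.79). TNFRSF17, which encodes the surface target BCMA, fell by 0.81, BCL11A, a factor of the B lineage, by 1.54, IKZF1 by 0.48 and IKZF3 by 0.36, and CD38 by 0.28. IRF4, on which myeloma cells depend, went the other way, from 682 and 657 CPM to 1358 and 1355 CPM (1.11, SE 0.035, limma adjusted p = 2.38e-30), and so did BACH2, a factor of earlier B cells (36.4 and 39.4 CPM against 79.3 and 82.7 CPM, 1.17), and the surface target SLAMF7 (0.31). PRDM1, at 404 and 402 CPM against 399 and 398 CPM, did not pass (limma adjusted p = 0.113).

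Most of the genes changed at least 2-fold belonged to no list, 167 of those higher and 114 of those lower. ADM2, which encodes a vasodilator peptide, rose most of them, from 5.35 and 7.01 CPM to 121 and 112 CPM (4.12, SE 0.079, limma adjusted p = 1.09e-39). Others higher were the G protein regulator RGS16 (10.2 and 10.4 CPM against 76.6 and 72.6 CPM, 2.83), the small GTPases RND3 (2.66) and RHOB (151 and 162 CPM against 746 and 709 CPM, 2.30) and the vesicle GTPase RAB39B (2.61). PCK2, the mitochondrial enzyme that makes phosphoenolpyruvate, rose by 2.37, the semaphorin gene SEMA7A by 2.30, the polyamine-degrading enzyme SAT1 by 2.04 and CD55, a surface inhibitor of complement, by 1.99. Lower were TMCC2 (60.5 and 64.6 CPM against 16.5 and 16 CPM, −1.79), INAFM2 (−1.74), CXXC4, a Wnt antagonist (83.7 and 90.6 CPM against 24.5 and 25.2 CPM, −1.68), and SLC25A53, of the mitochondrial carrier family (−1.67). The mitochondrial aldehyde dehydrogenase ALDH1B1 (−1.55), the uracil-DNA glycosylase UNG, of base excision repair (109 and 108 CPM against 35.7 and 34.7 CPM, −1.51) and MAT2A, the enzyme that makes the methyl donor S-adenosylmethionine, were lower as well. MAT2A was at 245 and 241 CPM with DMSO and 84.9 and 84 CPM with CCF642-34 (−1.42, SE 0.051, limma adjusted p = 1.7e-28).

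Among structural and RNA-processing genes, the cytoplasmic actins ACTB (4899 and 4950 CPM against 2488 and 2404 CPM, −0.92) and ACTG1 (3438 and 3439 CPM against 1852 and 1820 CPM, −0.81) fell, while the tubulin genes TUBE1 (1.81), TUBB2B (1.37) and TUBB2A (1.34) rose in a list of 29 genes with 6 higher and 13 lower, and actin and tubulin reads may be shared with near-identical copies. Of 44 SR proteins, hnRNPs and CLK kinases 19 were higher and 19 lower, with RBM39 (0.82), CLK1 (0.74) and SRSF3 (0.56) higher and HNRNPAB (−0.76), SRSF2 (−0.63) and SRSF1 (−0.58) lower. Of 34 TRIM genes 11 (32.4%) were higher and 7 (20.6%) lower, against 29.7% and 27.9% of all genes. Of 391 ZNF genes 114 were higher (29.2%) and 78 lower (19.9%), at a median of 0.039. Of 52 listed long noncoding RNA genes 8 were higher (15.4%) and 10 lower (19.2%), and MIR22HG rose most (6.35 and 6.77 CPM against 42.3 and 44.1 CPM, 2.63). MALAT1 and NEAT1 were not listed.

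CCF642-34 and CCF642 were given at the same dose for the same time, so that 1 pair of compounds could be compared directly, without DMSO. At a limma adjusted p under 0.05, 1760 genes (15.9%) lay above their level with CCF642 and 1925 (17.4%) lay below it, 33.4% in all, and with library size alone 2406 were higher and 1488 lower. Of the 286 genes at least 2-fold above DMSO with CCF642-34, 27 were higher, 116 lower and 143 neither in this direct test, and of the 142 at least 2-fold below DMSO 20 were higher, 13 lower and 109 neither. The groups differed in how many of their genes passed this direct test. NF-kB genes (none of 23 higher, 20 lower), immediate early factors (1 of 23 higher, 18 lower) and heat shock chaperones (1 of 31 higher, 23 lower) were lower with CCF642-34, by medians of −0.44, −0.74 and −0.26. Respiratory chain genes (48 of 63 higher, none lower, median 0.22), disulfide isomerases and ERO1 oxidases (15 of 25 higher, none lower, median 0.17) and cytosolic ribosomal proteins (49 of 81 higher, 1 lower, median 0.11) were higher. Of 24 amino acid synthesis genes 4 were higher and 3 lower, near the shares of all genes (15.9% and 17.4%). Of 19 cytosolic tRNA synthetase genes none was higher and 3 were lower, but with library size alone 5 were higher and 2 lower.

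Among the genes changed at least 2-fold against DMSO, the direct difference was largest for HMOX1 above CCF642 (1.47, SE 0.041, limma adjusted p = 3.94e-31) and for NR4A3 below it (−2.22, SE 0.073, limma adjusted p = 1.01e-28). HMOX1 was at 446 and 429 CPM with CCF642, under the 1278 and 1234 CPM with CCF642-34, and NR4A3 at 268 and 295 CPM, over the 62 and 60.8 CPM with CCF642-34. MYC (0.79), SLC40A1 (0.73), FAM78A (0.70) and KIF20A (0.67) followed HMOX1, each of them below DMSO with both compounds and further below it with CCF642. NR4A2 (−2.01), SAT1 (−1.45), NR4A1 (−1.41) and HSPA6 (−1.18) followed NR4A3. For ATF4 the difference was 0.00068 (limma adjusted p = 0.991), with a 95% interval of −0.073 to 0.075, and for PHGDH it was −0.017 with an interval of −0.13 to 0.095.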

How the data were processed

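Total RNA of MM1.S cells was sequenced after oligo(dT) selection, and the authors deposited 1 table per library with CPM for 11048 gene symbols, which the authors scaled to library size and, as far as the values show, not further. The submitters' processing notes name STAR, edgeR 3.24.3, limma 3.38.3 and the build hg19, with no role given, and the counting tool, its annotation and its strand setting are not given in the sources used here. In all 6 libraries 100% of the CPM values were whole multiples of the value of 1 read within 0.01 reads, so reads could be recovered. The lowest value above 0 came to 5 and 3 reads in the CCF642-34 libraries and 1 read in the others, so that in those 2 libraries a single read was inferred from the spacing of the values and not seen directly. The libraries compared held 21403137 to 28459677 reads. The deposited table of the whole series held the same values and was not used.

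CPM were scaled by TMM, converted to log2(CPM + 1) and fitted with limma 3.58.1 (trend, all 6 libraries as 3 group means, 3 residual degrees of freedom, no replicate block) in R 4.3.3. Tests were two-sided with Benjamini-Hochberg adjustment over all 11048 genes, and a pseudocount of 1 understates the change of low genes. In simulated data for this comparison over 11048 genes, 98 of 100 genes changed 3-fold, 83 of 100 changed 1.5-fold and 10 of 10848 unchanged genes were called. Genes changed at least 2-fold also had an unadjusted p under 0.05. Alternatives were edgeR 4.0.16, limma-voom and DESeq2 1.42.0 on recovered reads, other scalings, pseudocounts and a filter, a replicate block and each library left out.

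The 57 gene lists and the comparison were chosen with earlier results of these data known. Genes were named by a rule: the target and genes named by the study, the 12 largest changes each way (mean log2 of at least 3, groups not overlapping), the 10 largest each way outside the lists, the 3 largest each way and preset genes of each list, and the 5 largest direct differences each way. Promoter windows came from RefSeq (GRCh38.p14) by symbol for 9105 of 11048 genes, while the files were made on hg19, so no coordinate was carried between builds. Motifs were searched on both strands.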

Additional observations from a re-analysis of the deposited data

How the results depend on the processing

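Among the counts of called genes, the number at least 2-fold lower moved most. It was 142, and 253 with a pseudocount of 0.1, 57 with a pseudocount of 4, 272 with edgeR, 272 with limma-voom and 268 with DESeq2 on recovered reads, and the number at least 2-fold higher (286) became 381, 198, 396, 398 and 384. All 428 genes called at least 2-fold were shared with each of these but the pseudocount of 4 (255), and 373 with library size alone, which moved the median of all genes from 0.007 to −0.078. The number of genes higher than with CCF642 (1760) ranged from 1044 to 1659 when 1 library was left out, with 1044 and 1168 when it was CCF642-34 replicate 1 or 2. Medians that changed sign against all genes were those of lysosomal hydrolases and V-ATPase (−0.020 with DMSO replicate 1 left out, 0.005 and 0.008 with CCF642-34 replicate 1 or 2 left out) and of mRNA decay factors (0.093 at a mean CPM of at least 5, and −0.033 without DMSO replicate 2 to 0.011 without DMSO replicate 1). The cause was not tested. Of 550 named genes, 24 lost their call and 11 gained one with library size alone, 10 lost it with DESeq2, and 23 to 32 lost it without 1 of the 4 libraries. Replicate numbers were shared between groups, and deviations of same-numbered libraries correlated at −0.05, −0.08 and 0.11 over 9390 genes. These weak correlations cannot settle whether same-numbered libraries were handled together, which the sources used here do not say. With the replicate block the counts were 286 and 142 at 2-fold and 3308 and 3114 at an adjusted p under 0.05, and all 550 named genes kept their call. Between replicates the squared difference was 2.06 times that of counting error alone with DMSO and 3.37 times with CCF642-34, so depth was not the only source of spread.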
